A study of Mus musculus with 21 samples.

Results

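The histone genes of the mouse were followed through an antigen response of CD4+ T cells. Members were all genes whose name in the normalised expression table began with Hist1h to Hist4h, H2af, H3f3 or H1f, which gave 64 genes of 15249 in that table and of 47643 in the count table. They comprised 54 clustered histone genes (5 linker H1, 12 H2A, 13 H2B, 11 H3 and 13 H4 genes), 8 orphan genes that are named apart from the clusters and encode replacement or linker variants (H1f0, H2afj, H2afv, H2afx, H2afy, H2afz, H3f3a and H3f3b), the pseudogene Hist3h2bb-ps and the antisense gene H3f3aos. In the GENCODE vM21 annotation of GRCm38, 91 genes carried names of this form, of which 27 were absent from the normalised table and are not members.

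CD4+ T cells were sorted by flow cytometry from spleens of Tg4 Tiger Nr4a3-Tocky mice, and 3 mice per group gave 21 libraries in 7 groups. The Tg4 transgene encodes a T cell receptor specific for a peptide of myelin basic protein (MBP), Tiger is an Il10-GFP reporter, and in Nr4a3-Tocky a Timer protein that turns from blue to red fluorescence as it ages is read as a record of receptor signalling. Of these, 6 groups received the 4Y form of the MBP peptide under the skin without adjuvant, at 0.8 µg or 80 µg, with spleens removed 4 h, 12 h or 24 h later, while the control group was untreated. All groups shared the strain and therefore the transgenic receptor and both reporters; mice of both sexes were used and their age is not given in the sources used here. By the study's methods, the sort took Blue+Red− cells after 4 h, cells with both colours after 12 h and Blue−Red+ cells after 24 h. Time and sorting gate therefore cannot be told apart, and the gate of the control cells is not given in the labels. Library totals ran from 2352800 to 6244279 counts, and 3 counts, used below as the floor, corresponded to 1.85 to 4.28 normalised counts depending on the library.

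Nucleosomes wrap DNA around pairs of the core histones H2A, H2B, H3 and H4, and linker histone H1 binds where the DNA enters and leaves. Clustered histone genes are mostly transcribed in S phase, when new DNA must be packaged, and their mRNAs classically end just after a conserved stem-loop (hairpin) that is bound by the protein Slbp, with no poly(A) tail. Orphan variant genes are spliced or polyadenylated like other genes and are read outside S phase as well. Naive T cells rest outside the cell cycle and can enter it after antigen. The libraries were made with the QuantSeq 3' FWD kit, in which oligo-dT primes from poly(A), so a clustered histone gene was counted only as far as its transcript carried a poly(A) tail or another A-rich stretch. A change in the amount of such an mRNA and a change in the share of it with a tail cannot be told apart in these libraries, nor, in bulk RNA, can fewer cells that express a gene and less RNA per cell.

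Stem-loops were searched in the annotated transcripts within 150 bases after the stop codon, as 6 paired bases on each side of a loop of 4 bases beginning with TT. A hairpin was found in 36 of 54 clustered genes and, among the orphan genes, in H2afx alone, whose transcripts can end either way. The windows below show the 7 letter versions among these genes in a member each, with a repeat of the commonest for Hist3h2a, since these are the genes whose counts are described further on. Each has 26 bases of GRCm38 on the strand of the gene, in which capitals mark the paired stem and the 4 lower-case letters between them the loop.
Hist1h1c, chr13:23739507-23739532, plus strand: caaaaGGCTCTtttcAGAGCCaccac
Hist3h2a, chr11:58955167-58955192, plus strand: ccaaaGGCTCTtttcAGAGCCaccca
Hist1h3c, chr13:23745042-23745067, minus strand: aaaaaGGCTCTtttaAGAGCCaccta
Hist2h2ac, chr3:96220413-96220438, minus strand: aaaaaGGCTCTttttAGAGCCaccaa
Hist1h4d, chr13:23581945-23581970, plus strand: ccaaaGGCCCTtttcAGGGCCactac
Hist1h4i, chr13:22040961-22040986, minus strand: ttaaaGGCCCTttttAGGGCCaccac
Hist1h4b, chr13:23757361-23757386, plus strand: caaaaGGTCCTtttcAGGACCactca
H2afx, chr9:44335235-44335260, plus strand: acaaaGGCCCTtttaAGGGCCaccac
The version of Hist1h1c and Hist3h2a was shared by 19 genes, that of Hist1h4d by 6 H4 genes, that of Hist1h3c by 5 genes, and those of Hist1h4i and Hist1h4b by 2 genes each, counted over the windows that lie whole within the annotation, which leaves out Hist1h4m.

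The clustered genes were sorted by how far their annotated transcript ran past the hairpin. In 19 of them an annotated transcript ended over 100 bases past the hairpin (840 bases in Hist1h1c, 1153 in Hist1h1e and 1643 in Hist3h2a), 17 ended closer to it (74 bases in Hist1h3c and 11 in Hist1h2ab), and in the other 18 no hairpin was found. The 19 extended genes summed to between 526.3 and 572.5 normalised counts in the control libraries, and 13 of them had a count in every one. The 17 genes that ended by the hairpin summed to between 36.5 and 38.1, with 3 counted in every control library, and the 18 without a hairpin in their annotation to between 68.5 and 84.2, with 4. These sums describe counts at annotated 3' ends, and in genes such as Hist1h1b and Hist1h2an the annotation stops at the stop codon, so that a hairpin beyond it could not be seen.

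Promoters of 56 members (49 clustered, 7 orphan) were matched in RefSeq (GRCm38.p6), each as 250 bases before to 50 bases after the start site, and were searched on both strands for 4 motifs, none of which is contained in another. CCAAT was in 37.4% of all 32851 promoters of that length and in 100% of the clustered H1, H2A, H2B and H3 promoters, but in 3 of 12 H4 promoters. TATAAA was in 13.6% of all promoters and in 63.3% of the clustered ones. The octamer ATTTGCAT was in 1.74% of all promoters, in 6 of 12 H2A and in 5 of 11 H2B promoters, and in no clustered H1, H3 or H4 promoter; AAACACA, known from H1 genes, was in 7.18% of all promoters and in 4 of 5 H1 promoters. The promoters of Hist1h1b and Hist1h2ab are shown because both genes went from at most 2.86 normalised counts in the control to at least 110.5 at 24 h (below); capitals mark these 4 motifs on either strand.
Hist1h1b, chr13:21780576-21780875, minus strand: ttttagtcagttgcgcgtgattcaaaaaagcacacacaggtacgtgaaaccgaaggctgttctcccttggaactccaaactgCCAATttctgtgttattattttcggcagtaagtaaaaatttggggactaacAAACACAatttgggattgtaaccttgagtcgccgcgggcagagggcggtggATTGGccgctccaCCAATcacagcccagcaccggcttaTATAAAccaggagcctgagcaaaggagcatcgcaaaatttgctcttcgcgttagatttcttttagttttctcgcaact
Hist1h2ab, chr13:23750838-23751137, plus strand: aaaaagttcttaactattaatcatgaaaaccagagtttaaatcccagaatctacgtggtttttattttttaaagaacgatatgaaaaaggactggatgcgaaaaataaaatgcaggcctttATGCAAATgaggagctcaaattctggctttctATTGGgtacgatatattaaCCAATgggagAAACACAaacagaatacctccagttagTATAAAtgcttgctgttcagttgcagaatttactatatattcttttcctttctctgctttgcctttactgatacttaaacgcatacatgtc

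The summed counts of the clustered genes were below the control at 4 h and 12 h and above it at 24 h, whereas the group means of the orphan sum were at no time below that of the control. The clustered genes summed to 647 to 678.1 normalised counts in the 3 control libraries. At 4 h the sum was 108 to 132.7 with 0.8 µg and 75.5 to 108.8 with 80 µg, and at 12 h it was 161.7 to 238.3 and 224.7 to 329.4. Every library at 4 h and 12 h was therefore below every control library. At 24 h the sum was 3750 to 5218 with 0.8 µg and 6107 to 6836 with 80 µg, 7.01 times the control mean with the low dose and 24.3 times the mean of the low dose at 12 h. Without Hist1h1e, the most counted clustered gene, group means ran from 417.7 in the control through 88.95 and 63.2 at 4 h to 3036 and 3894 at 24 h, which is the same order.

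The orphan genes summed to 2495 ± 84.4 normalised counts (SD, n = 3) in the control, to 2622 ± 139 and 2765 ± 58.8 at 4 h with 0.8 µg and 80 µg, to 2599 ± 214 and 2709 ± 34 at 12 h, and to 3632 ± 242 and 4636 ± 219 at 24 h. The libraries of both 24 h groups lay above all control libraries, at 3382 or more against at most 2578. Sums are given as description, with no test. The orphan sum held opposite moves: at 4 h H2afv went from a mean of 306 in the control to 17.7 and 5.95 with 0.8 µg and 80 µg, whereas H3f3b went from 674.9 to 1008 and 1206. By counts of genes called lower at 4 h, both classes were near the share of all genes, as given with each comparison. Of the clustered genes, 13 had no count in any control library and 20 had a count in every one. A fall could not be seen in the former, so that the clustered share does not measure how many of the counted genes fell.

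**Figure D1:**
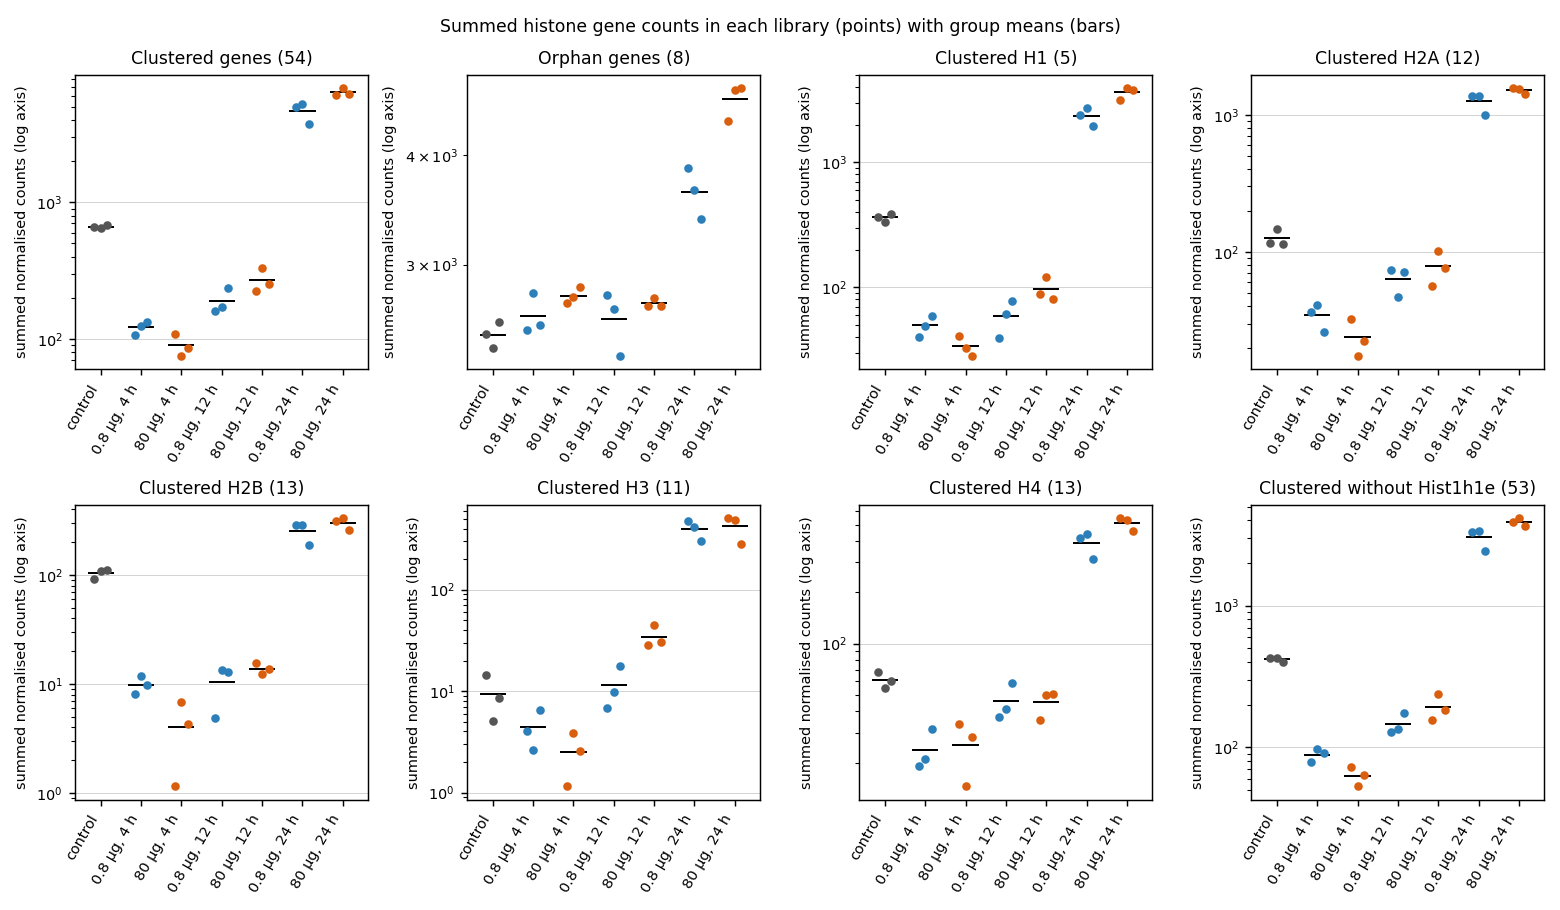
Summed normalised counts of the 54 clustered and 8 orphan genes, of each clustered family and of the clustered genes without Hist1h1e (log axes), in each library (points) with group means (bars); grey is control, blue 0.8 µg and orange 80 µg. The clustered sum of every 4 h and 12 h library lies below the control libraries (647 to 678.1) and that of every 24 h library above them, at 3750 or more.

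Family sums are given as description, with no test of a difference between families. H1 and H2B sums were lowest at 4 h and still low at 12 h: the H2B mean was 103.4 normalised counts in the control, 9.88 and 4.08 at 4 h, 10.5 and 13.9 at 12 h, and 255.1 and 300.9 at 24 h. The H3 sum was low in control cells (5.07 to 14.4 per library) and was above that range at 12 h with 80 µg (28.3 to 44.8), whereas with 0.8 µg the 12 h libraries (6.86 to 17.6) overlapped the control. At 12 h with 80 µg most of that sum came from Hist1h3a (mean 22.7) and Hist1h3c (6.52). These were the 2 of 9 H3 genes tested that were called higher, where 17.8% of all genes were. By 24 h the H3 mean was 396.5 with 0.8 µg and 426.3 with 80 µg. The number of clustered genes with any count averaged 29 per control library, 18.3 and 17 at 4 h, 25 and 30 at 12 h, and 51 and 52.7 at 24 h with the low and the high dose. Members passed a filter on counts over all libraries, some through their 24 h counts alone, so the 24 h numbers in part restate that filter. They also depend on depth, with mean library totals of 2960305 counts in the control and 5096498 with 80 µg at 24 h.

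The first comparison asked what antigen did to these genes within 4 h. Genes were called changed at a DESeq2 adjusted p under 0.05 over all genes tested and a shrunken log2 fold change past 1 in size. The p-values of these comparisons rest on the spread between mice within groups, estimated jointly over the libraries of all groups. With 0.8 µg, 14 of 51 clustered genes tested were called lower and 0 higher, where 23.4% of all genes were called lower and 17.3% higher. With 80 µg, 12 of 51 were called lower, against 25.1% of all genes, and 0 higher, against 18.4%. The 51 include genes with no count in any control library, which could not be called lower here or at 12 h. In the higher direction the unadjusted p was under 0.05 for 0 and 1 clustered genes and edgeR called 0 with both doses. The median log2 change of the clustered genes was −0.46 with 0.8 µg and −0.94 with 80 µg, beside −0.13 and −0.15 over all genes; it was 0 in both comparisons with genes near the floor set to their bound, since 25 and 27 clustered genes had no count in any 4 h library of the low and the high dose. All comparisons with the control rest on the same 3 control libraries.

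Of the 5 linker histone genes, 3 were called lower at 4 h with each dose (23.4% and 25.1% of all genes). Hist1h1c had 87.1, 100.4 and 121.6 normalised counts in the control libraries, 8.08 to 17.1 with 0.8 µg at 4 h and 4.63 to 6.00 with 80 µg, so no library overlapped the control. On the log2 scale it fell by 2.87 (SE 0.30) and by 4.03 (SE 0.37). Hist1h1e had 220.1, 230.9 and 279.8 in the control, 27.7 to 42.1 with 0.8 µg and 22.3 to 35.88 with 80 µg, a gap that again no library bridged, and fell by 2.83 (SE 0.22, DESeq2 adjusted p = 2.9e-37) and by 3.15 (SE 0.22). Hist1h1d, at 10.1 to 15.7 in the control, had no count in 4 of the 6 libraries taken at 4 h and at most 1.94 in the others. Hist1h1b, another H1 gene, was at the floor in the control (2.03 to 2.86) and was not called at 4 h.

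Among the core histone genes, Hist3h2a, an H2A gene of the small chromosome 11 cluster, had 71.1, 74.2 and 104.5 normalised counts in the control and 0 to 6.00 in the 6 libraries at 4 h. It fell by 4.40 (SE 0.56) with 0.8 µg and by 3.91 (SE 0.51) with 80 µg. The H2B genes Hist2h2be and Hist3h2ba, named after their values were seen, went the same way: Hist2h2be had 28.6 to 50.7 in the control and at most 2.02 in any 4 h library. Hist3h2ba had 24.3 to 34.3 in the control and 0 in all 3 libraries of the low dose at 4 h, at least 8.86-fold lower, counted from the floor of 3 counts per library. Hist1h4d, an H4 gene, had 16.2 to 25.8 in the control and 1.94 to 9.26 at 4 h, and fell by 1.24 (SE 0.41) and 1.72 (SE 0.42).

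Hist1h2bc and Hist2h4, named after their values were seen, were also called lower with both doses at 4 h. Hist1h2bc had 17.5 to 28.55 normalised counts in the control and 0 to 4.29 at 4 h, without overlap. Some other falls at 4 h were thin. Hist1h2an was called lower with 0.8 µg from a control of 1.43 to 5.15 normalised counts, around the floor, so no fold is given. Hist1h4i (log2 change −1.52, SE 0.54) overlapped between control (6.09 to 22.8) and low dose (1.32 to 10.8) and lost its call without control replicate 3 (adjusted p = 0.063 in DESeq2) or low dose replicate 1 or 2 (0.0806 and 0.0721). Hist1h2ae had 3.04 to 11.4 in the control and 0 to 1.08 with 0.8 µg, a ratio of 0.117 with a 95% counting interval of 0.0131 to 0.492, and lost its call without control replicate 3 (DESeq2 adjusted p = 0.0685) or low dose replicate 2 (0.0568). Fitted to only the 6 libraries compared, 8 clustered genes were called lower with 0.8 µg in place of 14.

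By the class of their 3' end, 9 of 16 tested extended genes, 0 of 17 that ended by the hairpin and 5 of 18 without a hairpin were called lower with 0.8 µg at 4 h, and 8, 1 and 3 with 80 µg, where 23.4% and 25.1% of all genes were called lower. Most genes that end by the hairpin were near 0 in the control, so that a fall could not be detected at this depth. For those 17 genes with 0.8 µg, the unadjusted p was under 0.05 in 0 and edgeR called 0.

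Markers of other cells moved with the early fall. A list of 6 B cell markers summed to 388.3 to 419.7 CPM (counts per 1e6 counts of the library) in the control, to 39 to 77.96 at 4 h, to 34.8 to 93.6 at 12 h and to 286.8 to 402 at 24 h. Most of it was Ighm, the immunoglobulin heavy chain gene (331.7 to 358.3 in the control and 21.6 to 30.02 at 4 h), while Cd79a, which defines B cells, was at most 3.83 in the control and at 0 in all libraries of 3 groups. A list of 6 T cell markers also moved, from 2393 to 2509 in the control to between 1000 and 1625 at 4 h and 12 h, and lists for NK cells (0 to 4.49), CD8 T cells (13.1 to 51.3), myeloid cells (20.1 to 63.8) and erythroid cells (5.31 to 212.5) spanned these CPM over all libraries. The part of these marker changes in the fall of the histone genes was not tested.

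**Figure D2:**
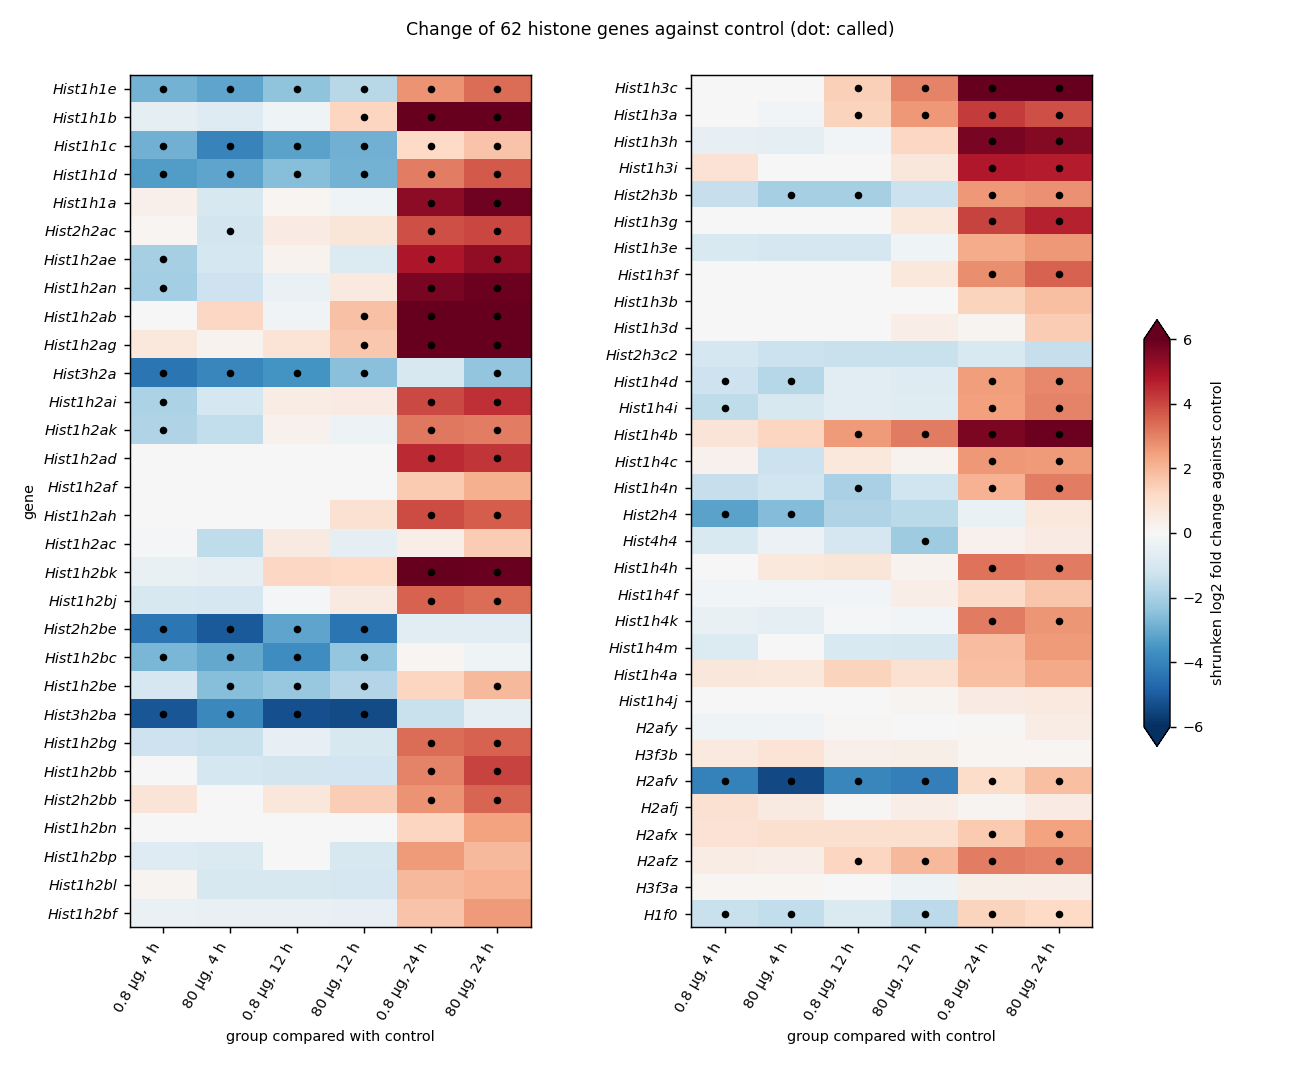
Shrunken log2 fold change against control of the 54 clustered and 8 orphan genes (rows, ordered by family and mean count) in the 6 immunised groups (columns), with a dot where the gene was called. Blue cells gather in the 4 h and 12 h columns for 14 and 12 clustered genes called lower at 4 h, and red cells fill the 24 h columns, with 33 and 34 clustered genes called higher.

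At 12 h some of the genes that had fallen were still called lower, and a few clustered genes with little count in the control had risen. With 0.8 µg, 3 of 51 clustered genes were called higher and 10 lower, where 17.2% and 20.5% of all genes were. With 80 µg, 6 were called higher and 9 lower, against 17.8% and 20.1%. The median clustered log2 change was −0.14 and −0.15, beside −0.11 over all genes in each comparison, and 0 with genes near the floor at their bound.

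Hist1h1c, Hist1h1d, Hist1h1e, Hist3h2a, Hist2h2be, Hist3h2ba and Hist1h2bc were called lower with 0.8 µg at both 4 h and 12 h, whereas Hist1h2ae, Hist1h2ai, Hist1h2ak, Hist1h2an, Hist1h4d, Hist1h4i and Hist2h4 were called lower at 4 h and not at 12 h; the difference between the times was not tested. Of these, Hist1h2bc, Hist1h2ai, Hist1h2ak and Hist2h4 are named after their values were seen. Hist1h1c, at 4.90 to 15.0 normalised counts with 0.8 µg and 7.78 to 16.1 with 80 µg, fell by 3.21 (SE 0.31) and by 2.89 (SE 0.28) against the control. Hist1h1e had 34.3 to 64.6 with 0.8 µg and 68.0 to 89.5 with 80 µg, where the lowest control library had 220.1, and fell by 2.42 (SE 0.20) and 1.66 (SE 0.18). Hist3h2a had 2.35 to 11.8 and 11.7 to 14.6, and fell by 3.59 (SE 0.49) and 2.52 (SE 0.44).

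The genes called higher at 12 h were ones with little or no count in the control, and all but 1 of those named here had a hairpin close to the annotated end. Hist1h3a, an H3 gene, had 2.03 to 4.12 normalised counts in the control, 5.88 to 15.3 with 0.8 µg and 16.4 to 29.4 with 80 µg, and rose by 2.59 (SE 0.57, DESeq2 adjusted p = 5.3e-05) with 80 µg. Hist1h3c, another H3 gene, had no count in any control or 4 h library and 2.92, 6.60 and 10.1 with 80 µg at 12 h, at least 1.88-fold higher. Hist1h4b, an H4 gene, had 0 to 1.43 in the control and 8.80 to 12.8 with 80 µg, a ratio of 29.0 with a 95% counting interval of 4.89 to 1173. With 0.8 µg it had 5.88 to 8.22, with no overlap with the control, a ratio of 19.1 (3.10 to 786).

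Several of these calls were borderline and were lost when 1 of several libraries was left out. With 0.8 µg, Hist1h3a (log2 change 1.33, SE 0.60) lost its call without any control library or without low dose replicate 3 (adjusted p 0.0637 to 0.243 in DESeq2), and Hist1h3c, at 0, 2.35 and 3.01 counts and so around the floor, lost it without any control library or low dose replicate 2 or 3 (0.0678 to 0.219). With 80 µg, Hist1h1b (3.65, 3.89 and 11.7 normalised counts) lost its call without any control library or high dose replicate 2 (DESeq2 adjusted p 0.0636 to 0.468). Hist1h2ab lost its call without control replicate 2 or 3 (DESeq2 adjusted p 0.147 and 0.121), and Hist1h2ag without control replicate 1 or 3 or high dose replicate 2 or 3 (0.0786 to 0.177). In the fit to only the libraries compared, 8 clustered genes were called with 0.8 µg in place of 13.

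A day after antigen, most clustered genes were far above the control. With 0.8 µg, 33 of 49 clustered genes tested were called higher and 0 lower, where 11.5% of all genes were called higher and 5.84% lower. With 80 µg, 34 of 51 were called higher and 1 lower, against 12.3% and 7.91%. The unadjusted p of DESeq2 was under 0.05 in the lower direction for 2 clustered genes with 0.8 µg, and edgeR called 0. The median log2 change of the clustered genes was 2.81 and 3.07 (2.56 and 2.61 with genes near the floor at their bound), beside 0.00 and −0.00 over all genes. By family with 0.8 µg, 5 of 5 H1, 9 of 12 H2A, 5 of 12 H2B, 7 of 9 H3 and 7 of 11 H4 genes tested were called higher. Members needed at least 10 counts over all libraries, and 13 clustered genes had no count in any control library. Some of these genes were counted at 24 h alone, so that these shares and medians in part restate the filter.

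Some of the genes called higher were barely counted in the control. Hist1h1b went from 2.03 to 2.86 normalised counts in the control to 296.3, 348.5 and 364.6 with 0.8 µg and 426.3, 591 and 638 with 80 µg, and rose with both doses; no fold is given, since the control libraries held 6 counts in all. Hist1h3c had 134.2 to 247.3 with 0.8 µg and 143.6 to 278.3 with 80 µg where the control had none, at least 58.2-fold and 66.4-fold higher. Hist1h2ab, an H2A gene with 1 count over the control libraries, had 110.5 to 154.8 and 159 to 178.1, a ratio of 364 (95% counting interval 64.9 to 14398) and 443 (79.2 to 17516). Counting intervals cover counting error only.

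H1 genes that had fallen came back above the control level. Hist1h1c had 231.2 to 260.2 normalised counts with 0.8 µg and 307.9 to 369.8 with 80 µg, all above the highest control library, and rose by 1.22 (SE 0.21) and 1.72 (SE 0.21). Hist1h1e reached 1309, 1641 and 1851 with 0.8 µg and 2198, 2582 and 2698 with 80 µg, and rose by 2.71 (SE 0.16, DESeq2 adjusted p = 6.7e-62) and 3.34 (SE 0.16, adjusted p = 3.7e-95). Hist1h1d rose by 3.07 (SE 0.40) and 3.67 (SE 0.40), to 75.4 to 152.9 and 152.3 to 169.3.

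Not all clustered genes took part. Hist3h2a stayed under its control range of 71.1 to 104.5 normalised counts, at 33.6 to 53.7 with 0.8 µg (log2 change −0.94, SE 0.42, adjusted p = 0.064 in DESeq2) and 6.58 to 22.8 with 80 µg, where it fell by 2.38 (SE 0.44, adjusted p = 5.2e-07). Hist2h2be was at 16.5 to 28.5 in the 24 h libraries, under every control library and not called (log2 change −0.67, SE 0.48, and −0.63, SE 0.48). Hist3h2ba had 2.80 to 22.1, also under every control library. The genes called higher with 0.8 µg included 9 of 16 tested extended genes, 12 of 16 that ended by the hairpin and 12 of 17 without a hairpin, where 11.5% of all genes were called higher. The limit from the filter on counts holds for these shares too.

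**Figure D3:**
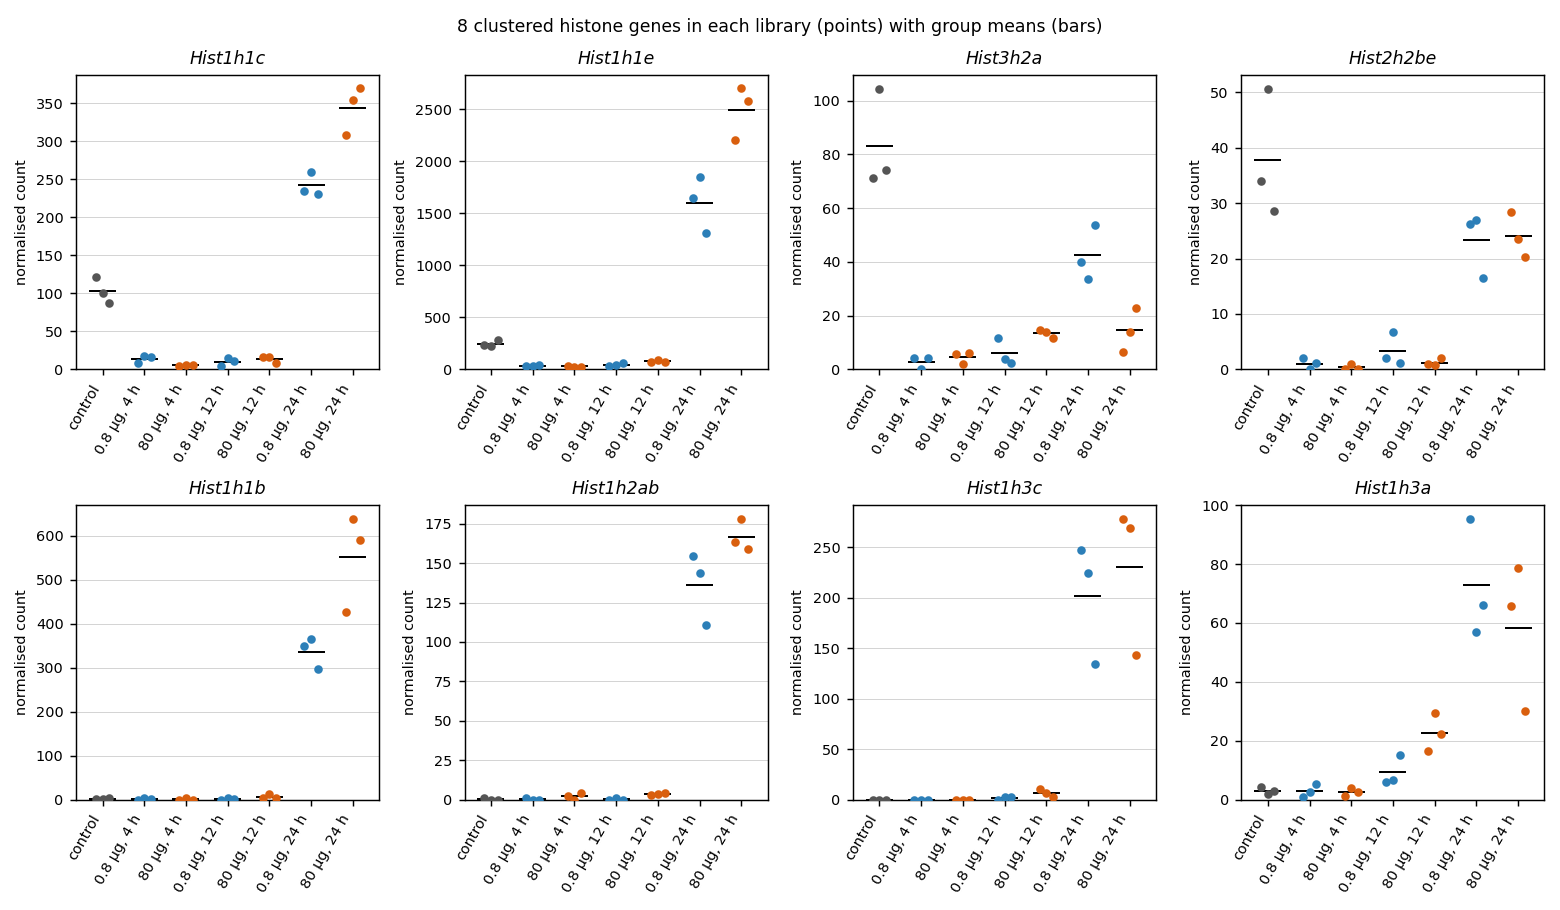
Normalised counts of 8 clustered genes in each library (points) with group means (bars), on linear axes from 0; grey is control, blue 0.8 µg and orange 80 µg. Hist1h1c and Hist1h1e drop at 4 h and exceed the control at 24 h, Hist3h2a and Hist2h2be do not regain it, and Hist1h1b, Hist1h2ab, Hist1h3c and Hist1h3a rise from near 0.

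Set directly against 12 h, the 24 h libraries were higher in 40 of 51 clustered genes with 0.8 µg (17.1% of all genes called higher) and in 43 of 51 with 80 µg (16.7%). None was called lower, where 9.48% and 10.5% of all genes were. However, 19 clustered genes with 0.8 µg and 11 with 80 µg had no count in any 12 h library and could not be called lower. The unadjusted p in DESeq2 was under 0.05 for 0 clustered genes in that direction and edgeR called 0, in both doses. Median log2 changes were 3.40 and 3.53 (2.84 and 2.93 with genes at their bound), beside 0.12 over all genes in each. Some clustered genes are members through their 24 h counts alone, so that these shares and medians in part restate the filter on counts. Hist1h1e rose by 5.13 (SE 0.19) with 0.8 µg and 5.01 (SE 0.17) with 80 µg over these 12 h. Hist1h1d rose too, from 5 and 4 counts in all at 12 h, too few for a fold. Hist3h2a rose with 0.8 µg (2.65, SE 0.49) and had a log2 change of 0.14 (SE 0.47) with 80 µg. Hist1h3a, with 80 µg, rose by 1.29 (SE 0.43), a call lost without high dose replicate 1 at 12 h or replicate 2 at 24 h (adjusted p 0.0558 and 0.0917 in DESeq2).

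Among the orphan genes, the H2A.Z pair parted early. H2afv and H2afz encode near-identical forms of H2A.Z, a variant placed at promoters and other regulatory nucleosomes. H2afv (chromosome 11) had 272.7, 301.2 and 344.3 normalised counts in the control, 14.1, 18.4 and 20.5 with 0.8 µg at 4 h and 3.47, 5.81 and 8.57 with 80 µg. It fell by 4.06 (SE 0.24, DESeq2 adjusted p = 2.8e-58) and by 5.43 (SE 0.33), was still low at 12 h (10.6 to 28.4 and 12.6 to 25.6, a fall of 3.90 and 4.12), and at 24 h was above the control at 632.2 to 704.8 and 989.1 to 1160. H2afz (chromosome 3) did not fall: it had 46.7 to 63.9 in the control and 46.3 to 87.2 at 4 h, which overlapped. H2afz then rose by 1.29 (SE 0.22) and 1.95 (SE 0.21) at 12 h, to 112.8 to 149.1 and 184.7 to 250.2, and by 3.09 (SE 0.21) and 2.98 (SE 0.21) at 24 h, to 426.4 to 511.1 and 407.6 to 452.6.

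H1f0 encodes a linker histone typical of cells that divide little. It had 15.7 to 22.7 normalised counts in the control, 4.29 to 9.26 at 4 h and 36.2 to 55.9 at 24 h, with no overlap between these times and the control. It fell by 1.33 (SE 0.46) and 1.5 (SE 0.46) at 4 h, and rose by 1.32 (SE 0.38) and 1.20 (SE 0.37) at 24 h. At 12 h it was called lower with 80 µg (a fall of 1.58, SE 0.45) and had a log2 change of −0.88 (SE 0.43) with 0.8 µg.

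H2afx, whose product is phosphorylated at DNA breaks, had 79.1 to 108.5 normalised counts in the control and 118.6 to 209.8 at 4 h and 12 h, where its log2 changes of 0.85 to 0.96 stayed under the threshold of 1. At 24 h it had 225 to 357.3 with 0.8 µg and 391.2 to 619.4 with 80 µg, and rose by 1.56 (SE 0.22) and 2.39 (SE 0.22). The groups did not overlap at any time with the control.

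The remaining 4 orphan genes were called in no comparison with the control, although the adjusted p of DESeq2 was under 0.05 for some. H3f3a and H3f3b both encode H3.3, the H3 variant deposited outside replication. H3f3b, at 626.7 to 740.9 normalised counts in the control, was at 935.7 to 1107 with 0.8 µg and 1158 to 1257 with 80 µg at 4 h (log2 change 0.58, SE 0.13, and 0.84, SE 0.13) and back at 587.4 to 844 at 24 h. H3f3a overlapped the control in every group, at 48.7 to 104.1 there and 53.6 to 132.5 elsewhere. H2afy, which encodes macroH2A, had 1043 to 1122 in the control and 1429 to 1551 with 80 µg at 24 h (log2 change 0.46, SE 0.08), and H2afj had 162.9 to 211.9 in the control and 320 to 387.4 with 0.8 µg at 4 h (0.91, SE 0.16).

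In counts, 2 of 8 orphan genes were called lower at 4 h with each dose, near the share of all genes (23.4% and 25.1%), and 0 higher, where 17.3% and 18.4% of all genes were (unadjusted DESeq2 p under 0.05 for 3 genes higher with each dose, and edgeR called 0 with 0.8 µg and 1 with 80 µg). At 12 h 1 was called higher in each dose, H2afz, and 1 lower with 0.8 µg and 2 with 80 µg, beside 17.2% and 17.8% of all genes higher and 20.5% and 20.1% lower. At 24 h 4 were called higher in each dose, where 11.5% and 12.3% of all genes were, and 0 lower, where 5.84% and 7.91% were (0 at an unadjusted DESeq2 p under 0.05 and 0 by edgeR, in each dose). The median log2 change of the 8 genes against the control was 0.26 and 0.25 at 4 h, 0.08 and 0.21 at 12 h, and 0.74 and 0.84 at 24 h. Between 12 h and 24 h, 3 of 8 rose with 0.8 µg (17.1% of all genes) and 4 with 80 µg (16.7%). In this comparison H2afv rose by 5.01 (SE 0.22) and 5.92 (SE 0.22) and H2afz, by 1.03 (SE 0.18) with 80 µg, fell under the threshold of 1 without high dose replicate 1 or 3 of 12 h (0.99 and 0.96).

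**Figure D4:**
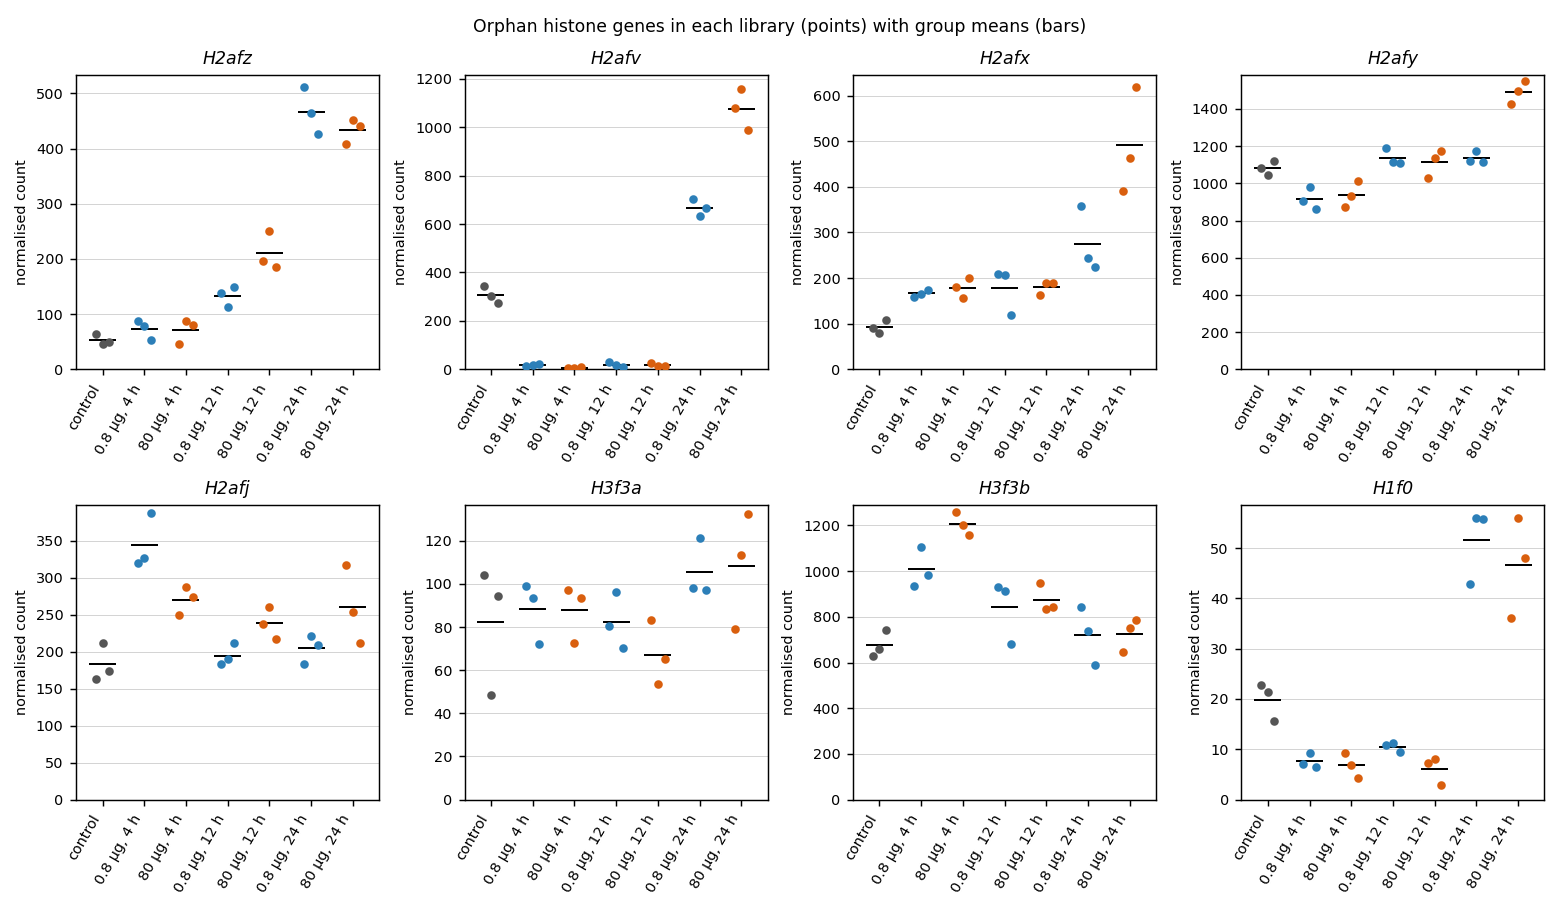
Normalised counts of the 8 orphan genes in each library (points) with group means (bars), on linear axes from 0; grey is control, blue 0.8 µg and orange 80 µg. H2afv is at most 28.4 in the 4 h and 12 h libraries and at least 272.7 elsewhere, H2afz climbs at 12 h and 24 h, and H3f3a overlaps the control in every group.

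Dose was compared at each time, to ask whether peptide dose set histone levels in cells sorted through the same gate. At 4 h, 2 of 30 clustered genes tested and 1 of 8 orphan genes were called lower with 80 µg (2.74% of all genes; 6.19% by adjusted p alone) and 0 higher (3.12%; 5.81%), where DESeq2 had 0 clustered and 1 orphan gene at an unadjusted p under 0.05 in the higher direction and edgeR called 0. H2afv fell by 1.37 (SE 0.38, DESeq2 adjusted p = 0.0039), with no overlap between its libraries of the low dose (14.1 to 20.5) and the high dose (3.47 to 8.57). Hist2h2ac, an H2A gene, had 20.5, 28.3 and 34.3 normalised counts with 0.8 µg and 6.78, 11.2 and 16.2 with 80 µg, and fell by 1.23 (SE 0.36, DESeq2 adjusted p = 0.0077). It lost its call without low dose replicate 2 or high dose replicate 2 (adjusted p = 0.0598 and 0.104 in DESeq2), and its call against the control with 80 µg, a fall of 1.09, was lost without the latter as well (0.0635). Hist1h1c fell by 1.16 (SE 0.42, DESeq2 adjusted p = 0.046), a call lost without any of 5 of the 6 libraries (adjusted p 0.115 to 0.19). In a fit to only these 6 libraries, none of the 3 calls was kept (adjusted p = 0.117 for H2afv in DESeq2).

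At 12 h no histone gene was called between doses, with 0 of 32 clustered and 0 of 8 orphan genes in either direction (1.83% of all genes called higher and 0.96% lower). The unadjusted DESeq2 p was under 0.05 for 6 clustered genes and 1 orphan gene higher and 0 lower, and edgeR called 0. By adjusted p alone (3.67% of all genes higher, 2.6% lower), Hist1h1e was higher with 80 µg by 0.76 (SE 0.21, DESeq2 adjusted p = 0.0075) and H2afz by 0.66 (SE 0.19, adjusted p = 0.011), with no overlap between the doses in either gene. When low dose replicate 3 was left out, 2 clustered genes were called, and 1 when high dose replicate 1 was. The median clustered change was 0.54, or 0.15 with genes near the floor at their bound, beside 0.01 over all genes.

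At 24 h, Hist3h2a was the 1 clustered gene of 21 tested that was called, lower with 80 µg by a log2 change of −1.43 (SE 0.44, DESeq2 adjusted p = 0.027), where 0.89% of all genes were called higher and 0.673% lower. Its libraries did not overlap, but the call was lost without low dose replicate 1 or 3 or high dose replicate 1 or 2 (adjusted p 0.0812 to 0.171 in DESeq2). It was also lost with the replicate number as a block, after thinning to the smallest library and, by its size, in a fit to only these 6 libraries. Adjusted p alone (3.73% of all genes higher, 2.2% lower) added Hist1h1e (0.64, SE 0.15) and Hist1h1b (0.71, SE 0.22) higher among the clustered genes, and H2afv (0.69, SE 0.14), H2afx (0.83, SE 0.20) and H2afy (0.39, SE 0.08) among the orphan ones. Of 8 orphan genes 0 were called (unadjusted DESeq2 p under 0.05 for 4 higher and 0 lower, edgeR 0), and without low dose replicate 1 the count was 1. The clustered median was 0.29, beside 0.02 over all genes.

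**Figure D5:**
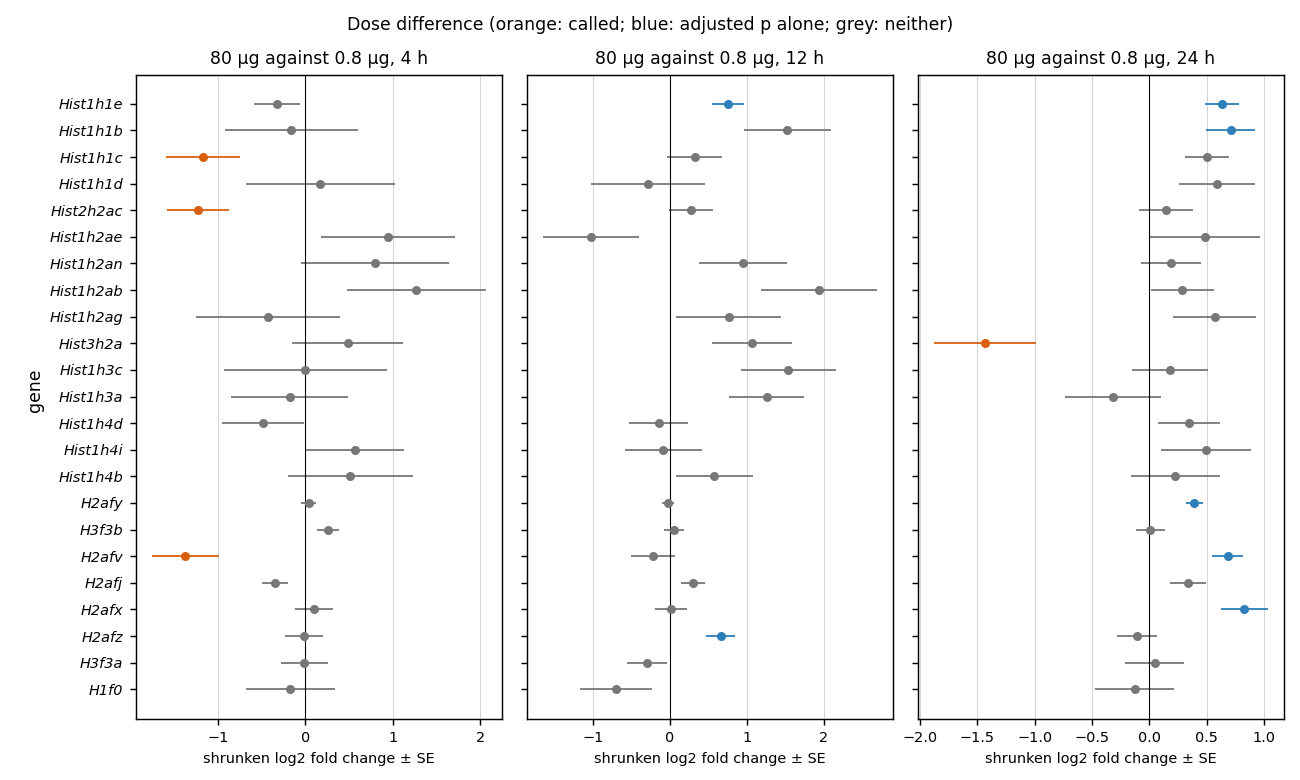
Shrunken log2 fold change of 80 µg against 0.8 µg (points, bars are SE) at 4 h, 12 h and 24 h for the 23 members chosen by the naming rule; orange marks called genes, blue an adjusted p under 0.05 alone and grey neither. H2afv lies at −1.37 at 4 h and 0.69 at 24 h, and Hist3h2a at −1.43 at 24 h.

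Whether the dose effect differed between times was tested in the 18 immunised libraries. In 4 of 25 clustered genes tested and 3 of 8 orphan genes the interaction passed an adjusted p of 0.05 in the DESeq2 likelihood ratio test, where 10.3% of all genes did. The smallest was H2afv, with log2 dose differences of −1.37, −0.22 and 0.69 at 4 h, 12 h and 24 h (adjusted p = 4.71e-06), and Hist1h1c had −1.16, 0.32 and 0.51 (adjusted p = 0.0161). Leaving out all libraries of replicate 1, 2 or 3 left 2, 0 and 2 clustered genes, and H2afv passed each time.

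Genes that make, process, carry and deposit histones were taken from a list of 34, all of them counted. Against the control, 4 h of the low dose gave 10 calls higher and 6 lower and the high dose 9 and 4; 12 and 3, then 14 and 3 at 12 h; and 14 and 1, then 16 and 1 at 24 h. Over all genes, 17.3% and 18.4% were called higher and 23.4% and 25.1% lower at 4 h, 17.2% and 17.8% higher and 20.5% and 20.1% lower at 12 h, and 11.5% and 12.3% higher and 5.84% and 7.91% lower at 24 h. The median log2 change of the list ran from 0.33 at 4 h with 0.8 µg to 0.84 at 24 h with 80 µg. Nasp, a chaperone of H3 and H4 and of H1, rose by 1.82 (SE 0.11) and 1.88 (SE 0.11) at 4 h, and Hat1, which acetylates new H4, by 1.86 (SE 0.18) and 2.39 (SE 0.17). Anp32e, which removes H2A.Z from chromatin, rose by 1.60 (SE 0.11) and 1.49 (SE 0.11) at 4 h.

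Chaf1a, the large subunit of the chromatin assembly factor that follows the replication fork, and Chaf1b, a smaller subunit, were called lower with 0.8 µg at 4 h and not called with 80 µg. Both overlapped the control in either dose, and Chaf1a had only 6 counts in all with the low dose and 18 in the control, so no fold is given. Chaf1a rose by 4.04 (SE 0.37) and 5.00 (SE 0.37) at 12 h and by 5.30 (SE 0.37) and 5.50 (SE 0.37) at 24 h, and Chaf1b by 1.31 (SE 0.35, libraries overlapping the control) and 2.04 (SE 0.34) at 12 h. The chaperone gene Asf1b fell by 1.73 (SE 0.41) and 2.51 (SE 0.45) at 4 h and rose by 3.35 (SE 0.30) and 4.10 (SE 0.30) at 24 h, whereas Asf1a was called in no comparison with the control (log2 changes 0.46 to 0.78). Cenpa, the centromeric H3 variant, fell by 4.01 (SE 0.41) and 3.46 (SE 0.35) at 4 h, was still lower at 12 h, and rose by 2.02 (SE 0.21) and 2.64 (SE 0.21) at 24 h.

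Slbp, which binds the hairpin, rose by 1.27 (SE 0.25) with 80 µg at 12 h and by 1.75 (SE 0.25) and 2.06 (SE 0.25) at 24 h. Of the genes of histone gene transcription, Casp8ap2 rose by 1.37 (SE 0.13) and 1.498 (SE 0.13) at 24 h, and Npat stayed under the threshold of 1 in every comparison with the control, at log2 changes of 0.40 to 0.89. Hira, which deposits H3.3, rose by 1.06 (SE 0.22) and 1.01 (SE 0.22) at 4 h, while Daxx and Atrx, the other H3.3 route, were called in no comparison with the control. Between doses, 0 of 33 supply genes tested were called at each time (unadjusted DESeq2 p under 0.05 for 5, 6 and 6 genes at 4 h, 12 h and 24 h; edgeR called 1 at 12 h and 0 at the other times). Of all genes, 3.12%, 1.83% and 0.89% were called higher and 2.74%, 0.96% and 0.673% lower at these times, so few calls would fall among 33 genes. By adjusted p alone 1 supply gene was higher and 2 lower at 4 h (5.81% and 6.19% of all genes), and 2 and 3 were higher at 12 h and 24 h (3.67% and 3.73%).

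DNA replication genes were counted in a list of 32. At 12 h, 27 of them were called higher with 0.8 µg and 30 with 80 µg. In the same comparisons 3 and 6 of 51 clustered histone genes were called higher, and 17.2% and 17.8% of all genes. At 24 h all 32 were called higher with both doses (11.5% and 12.3% of all genes). The low dose at 4 h gave 3 calls higher and 7 lower (17.3% and 23.4% of all genes), and the high dose 6 and 6 (18.4% and 25.1%). At 12 h 2 were called lower with 0.8 µg (20.5%) and 0 with 80 µg (20.1%; edgeR 0, unadjusted DESeq2 p under 0.05 for 0). Between doses at 12 h, 9 of the 32 were called higher with 80 µg (1.83% of all genes), and at 4 h and 24 h 0 were called (3.12% and 0.89%; unadjusted DESeq2 p under 0.05 for 5 and 10 higher and 1 and 0 lower, edgeR 0 and 1).

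Some counts could not be assigned with certainty. In 26 of the clustered genes over 50% of the 50-base windows in the last 300 bases of the transcript occur in another gene too, and in 16 none do; Hist1h1c, Hist1h1b, Hist3h2a and Hist2h2be share none, although the exon of Hist3h2a overlaps Trim17 on the same strand and Gm44313 on the opposite one. The end of Hist1h1e lies wholly within annotated transcripts of Hist1h2be and Gm11398 on the same strand, 66.5% of the Hist1h4b windows occur in other H4 genes, and 70.1% of those of Hist1h2ab in other genes of the H2A family. Among the orphan genes, windows shared with other genes made up 28.5% in H2afz, 30.15% in H3f3a, 15.7% in H3f3b and 4.38% in H2afj. H2afv, H2afx, H2afy and H1f0 shared none. Exons of 5 members overlap another gene on the same strand and those of 21 a gene on the opposite strand, and the strand setting of the counting step is not given in the sources used here. Hist3h2bb-ps and H3f3aos had 18 and 36 counts over all libraries; H3f3aos was called lower with 0.8 µg at 12 h, where it was at 0, at least 1.62-fold from the floor.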

How the data were processed

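Read counts per gene were deposited by the authors, who trimmed reads with Bbduk, aligned them to GRCm38 (mm10) with STAR 2.5.2a and counted them with HTSeq-count; the annotation release is not given in the sources used here. The deposited log2 values, the authors' regularised log transform from DESeq2, served only to find the members by name. From the counts, DESeq2 1.42.0 (R 4.3.3) was fitted with a coefficient per group to all 21 libraries over 15300 genes with at least 10 counts in all, with normal shrinkage. Genes were called at a Benjamini-Hochberg adjusted p under 0.05 and a shrunken log2 change past 1, as in the study's methods. Normalised counts are counts divided by DESeq2 size factors. Low counts were handled by a floor of 3 counts per library, with at least-fold bounds against groups at 0 and exact 95% intervals where a group held 1 to 3 counts. Genes named were the 14 most counted clustered genes, orphan genes averaging 10 normalised counts or more, up to 3 called members each way per comparison averaging 20 or more, and 14 supply genes; other names are stated as chosen later. Members and lists were chosen with earlier results of these data known. edgeR 4.0.16, thinning of counts, other filters and leaving out libraries were tried as alternatives. On simulated counts with 200 changed genes the DESeq2 Wald test was checked before use.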

Additional observations from a re-analysis of the deposited data

Results flagged for a closer look

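In 7 histone genes the effect of dose differed between 4 h, 12 h and 24 h by the DESeq2 likelihood ratio test over the 18 immunised libraries, a test that 10.3% of all genes passed. Leaving out the libraries of 1 replicate number took the clustered genes that passed from 4 to between 0 and 2 and the orphan genes from 3 to between 1 and 2, and H2afv passed each time. H2afv had log2 differences (80 µg against 0.8 µg) of −1.37, −0.22 and 0.69 (adjusted p = 4.71e-06). H2afy had 0.04, −0.03 and 0.39 (adjusted p = 0.0069 in DESeq2), and H2afj −0.35, 0.30 and 0.34 (0.0215). Among the clustered genes, Hist1h1c had −1.16, 0.32 and 0.51 (DESeq2 adjusted p = 0.0161), Hist2h2ac −1.23, 0.28 and 0.15 (0.0196), Hist1h1e −0.33, 0.76 and 0.64 (0.0277) and Hist3h2a 0.48, 1.07 and −1.43 (0.038). Of these 7, Hist3h2a is the 1 whose dose difference was positive at 12 h and negative at 24 h.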

How the results depend on the processing

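Of 117 calls of named genes, 115 were kept by edgeR with TMM, 113 with the replicate block, 111 after thinning to the smallest library and 101 with only the libraries compared; 13 were lost at least once when a library was left out, and 0 reversed. The ratios of class sums, 154 recomputed values, moved by less than the spread, the combined SD of the groups compared. Most of these values left out 1 library of a group. That shifts a mean of 3 libraries by less than their SD, so the outcome was largely set in advance and is no check of robustness. With only the libraries compared, 8 clustered and 1 orphan genes were called with 0.8 µg at 4 h, 8 clustered at 12 h, and between doses 0 clustered and 0 orphan at 4 h and 0 clustered at 24 h. By adjusted p alone, orphan calls were 6 with 0.8 µg and 6 with 80 µg at 4 h, 4 and 6 at 12 h, and between doses 1 clustered and 1 orphan at 12 h and 3 and 3 at 24 h. Between doses, edgeR called 1 clustered gene at 4 h and 2 in the interaction, and thinning gave 1 at 12 h, 0 at 24 h and 2 in the interaction. The causes of these shifts were not tested, beyond the smaller number of libraries in the fits to those compared.

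Without 1 library, clustered calls against the control ranged over 11 to 14 (0.8 µg) and 11 to 15 (80 µg) at 4 h, 9 to 11 and 12 to 14 at 12 h, and 24 to 32 and 30 to 35 at 24 h. Between doses they were 0 to 2 at 4 h, 0 to 2 at 12 h and 0 to 1 at 24 h, with orphan calls of 0 to 1 at 24 h. The 24 h against 12 h comparisons gave 33 to 42 and 35 to 42 clustered genes without 1 library. With all libraries of 1 replicate number left out, the interaction gave 0 to 2 clustered and 1 to 2 orphan genes.

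Replicate numbers are shared by the groups, and the labels do not say whether they mark mice handled together. The correlation of same-numbered libraries had a median of −0.014 (range −0.204 to 0.211, 63 pairs), and 12 pairs were over 0.1. For different numbers the median was −0.004 (range −0.263 to 0.224, 126 pairs), with 16 over 0.1. Of 21 libraries, 9 correlated best with their own number. These values cannot exclude a pairing, and the main fit modelled none. With the replicate block, 1 clustered gene was called between doses at 4 h (Hist2h2ac) and 0 at 24 h. Depth limits the genes near the floor of 3 counts, most of the clustered genes at 4 h among them.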
